A study of Homo sapiens with 20 samples.

Results

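The set described here comprised 38 genes whose products fold, degrade or translocate proteins in the endoplasmic reticulum (ER), out of 18305 genes in the table. They were taken as a list of names by role, chosen with earlier results of these data known, and all 38 were present and reached a mean of 1 FPKM in at least 1 group, as did 13089 genes in all. The libraries came from the parental, wild-type (WT), multiple myeloma lines AMO1, L363 and RPMI (RPMI-8226), from ARH77 (ARH-77), a B-lymphoblastoid line, as well as from their proteasome inhibitor-resistant counterparts. All 4 lines had a bortezomib-resistant form (BtzR), and AMO1 and L363 also one resistant to carfilzomib (CfzR), which gave 10 groups of 2 libraries each. Resistant cells were evolved in culture and kept in 90 nM of their drug, so that the selected state and the drug in the medium cannot be told apart, and each resistant line is 1 selected population. In bulk RNA, fewer cells of a type and less RNA per cell cannot be told apart either. The authors' values are FPKM, fragments per kilobase of transcript scaled to the number of mapped fragments, which allow levels to be compared between genes per unit of transcript length.

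The ER receives secreted and membrane proteins through the SEC61 channel, folds them with chaperones and disulfide-forming enzymes, and passes those that fail to the cytosolic proteasome, a route called ER-associated degradation (ERAD). When unfolded proteins accumulate, the sensors ERN1 (IRE1), ATF6 and EIF2AK3 (PERK) start the unfolded protein response, which raises much of this machinery through the factors XBP1, ATF6 and ATF4. Plasma cells, which secrete antibody, depend on this machinery, and proteasome inhibitors such as bortezomib and carfilzomib block the last step of ERAD. The 38 genes were grouped by role into 3 sensors, 9 ERAD genes, 12 chaperones and cochaperones, 7 oxidative folding enzymes and 7 genes of the translocon and its associated TRAP complex.

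Promoter sequences are shown first because 9 of the genes carry, just before their start site, an element named for the ER stress response. Windows of 250 bases before to 50 bases after the start (RefSeq, GRCh38.p14) were at hand for 35 of the 38 genes, all but DERL1, DERL3 and PDIA3, and the first window listed for each gene was searched on both strands. The ER stress response element, ERSE (CCAAT and CCACG with 9 bases of any kind between them), was found in 6 windows, or 17.1%, against 0.0806% of 27305 windows of all genes. ERSE-II (ATTGG and CCACG with 1 base of any kind between them) was found in 3 windows, or 8.57%, against 0.0549% of all windows. The core of the unfolded protein response element (TGACGTGG) was found in 2 windows, HYOU1 and TXNDC11, or 5.71%, against 0.795%. ERSE and ERSE-II both end in CCACG, and the TGACGTGG of HYOU1 overlaps its farther ERSE-II match. The 38 genes were picked for roles in the ER and its stress response, so these shares describe the list and are no independent test of it. A match describes letters in the sequence and not a site in use. For HSP90B1, the ER-resident HSP90 chaperone, for HYOU1, an ER chaperone of the HSP70 superfamily, and for HERPUD1, an ERAD scaffold, the 250 bases before the start are printed 5′ to 3′ on the strand of the gene, with ERSE in capitals for HSP90B1 and ERSE-II in capitals for the other two.
HSP90B1 (chr12:103930160-103930409, plus strand): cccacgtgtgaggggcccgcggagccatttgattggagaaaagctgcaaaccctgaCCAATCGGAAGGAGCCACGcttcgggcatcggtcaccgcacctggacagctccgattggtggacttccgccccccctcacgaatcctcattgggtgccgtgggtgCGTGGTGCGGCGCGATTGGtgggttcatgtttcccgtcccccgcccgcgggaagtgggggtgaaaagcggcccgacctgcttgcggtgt
HYOU1 (chr11:119057206-119057455, minus strand): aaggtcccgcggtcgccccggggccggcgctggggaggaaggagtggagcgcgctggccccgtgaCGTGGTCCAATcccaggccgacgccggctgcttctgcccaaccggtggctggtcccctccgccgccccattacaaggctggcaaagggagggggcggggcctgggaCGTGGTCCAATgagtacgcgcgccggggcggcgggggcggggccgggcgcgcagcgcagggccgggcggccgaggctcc
HERPUD1 (chr16:56931892-56932141, plus strand): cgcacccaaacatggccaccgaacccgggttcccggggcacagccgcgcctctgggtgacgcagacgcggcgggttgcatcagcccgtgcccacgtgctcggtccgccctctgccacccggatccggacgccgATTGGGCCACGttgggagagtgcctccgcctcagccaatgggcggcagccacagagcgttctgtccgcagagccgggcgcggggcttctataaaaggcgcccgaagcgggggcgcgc

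HSP90B1 held 1 ERSE in each orientation, beginning 194 and 89 bases before the start, and HYOU1 held ERSE-II at 185 and 79 bases. The other 6 genes are shown by the matched letters, in capitals, with up to 10 bases on each side.
HSPA5 (ERSE, chr9:125241381-125241419, minus strand): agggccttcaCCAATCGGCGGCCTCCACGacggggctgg
CALR (ERSE, chr19:12938374-12938412, plus strand): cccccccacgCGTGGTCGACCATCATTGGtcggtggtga
CANX (ERSE, chr5:179698768-179698806, plus strand): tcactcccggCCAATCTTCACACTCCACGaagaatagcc
CRELD2 (ERSE, chr22:49918544-49918582, plus strand): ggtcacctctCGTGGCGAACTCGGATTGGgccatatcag
ERO1B (ERSE, chr1:236282173-236282208, minus strand): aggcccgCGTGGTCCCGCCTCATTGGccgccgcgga
SDF2L1 (ERSE-II, chr22:21642104-21642134, plus strand): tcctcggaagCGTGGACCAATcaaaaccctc

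The match in HSPA5, which encodes the chaperone BiP, began 66 bases before its start and that in ERO1B, an oxidase of the ER, 243 bases. Of these 9 genes, in AMO1 BtzR cells 4 fell, 1 rose and 4 did not pass the test, and in RPMI BtzR cells 5 fell, 1 rose and 3 did not pass. Of all tested genes, 25.6% fell and 25.6% rose in AMO1 BtzR and 24.2% fell and 30.2% rose in RPMI BtzR, at an adjusted p under 0.05. Of the 26 genes that had a window without either element, 15 fell and 1 rose in AMO1 BtzR cells, and 16 fell and 3 rose in RPMI BtzR cells.

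Summed FPKM ranged from 457317 to 494850 over the 20 libraries, and read depth is unknown, since no counts accompany the values. Of the B-cell markers, PAX5, MS4A1, CD22 and CD79A were at most 1.70 FPKM in the 16 myeloma libraries. In the 4 of ARH77 they were at least 33.55. The plasma cell factor PRDM1 was at least 11.3 in the former and at most 1.67 in the latter, and SDC1 also lay apart. The other plasma cell markers overlapped. IRF4 was at 109 and 106 in ARH77 WT and 60.7 and 66.1 in RPMI WT. XBP1 was at 80.9 and 74.3 in ARH77 WT and 63.15 and 78.3 in AMO1 WT. SLAMF7 was at 32.1 and 25.75 in ARH77 WT, above all RPMI libraries. CIITA, listed with the B-cell markers, was at 9.17 and 6.48 in AMO1 WT and 98.6 and 96.1 in AMO1 BtzR. It was at most 8.40 in the other myeloma libraries and 47.6 to 66.2 in ARH77. The 7 plasma cell markers summed to 3360 to 3687 FPKM in AMO1 WT and 1707 to 1854 in AMO1 BtzR libraries, and without SDC1 the other 6 summed to 421 and 477 in AMO1 WT and 431 and 498 in AMO1 BtzR, so that SDC1 alone made up that difference. In the 4 RPMI libraries the 7 summed to 506 to 537, and SLAMF7 was at most 0.82. The 3 T-cell, 3 myeloid and 3 stromal markers summed to at most 12.8, 8.39 and 1.71 FPKM in any library. The libraries labelled AMO1 CfzR stand apart from their label: log2(FPKM + 1) over the tested genes correlated at r = 0.986 to 0.992 with the L363 libraries and at 0.878 to 0.883 with the other AMO1 libraries. They are therefore compared below with both WT lines and are left out of the account of AMO1.

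Differences are given on the scale log2(FPKM + 1), as resistant minus WT with the standard error of limma, and a gene passed at a Benjamini-Hochberg adjusted p under 0.05 over all tested genes. A gene was called when it also differed by at least 2-fold, a log2 difference of 1. All 38 genes are shown in every library in the heat map.

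**Figure D1:**
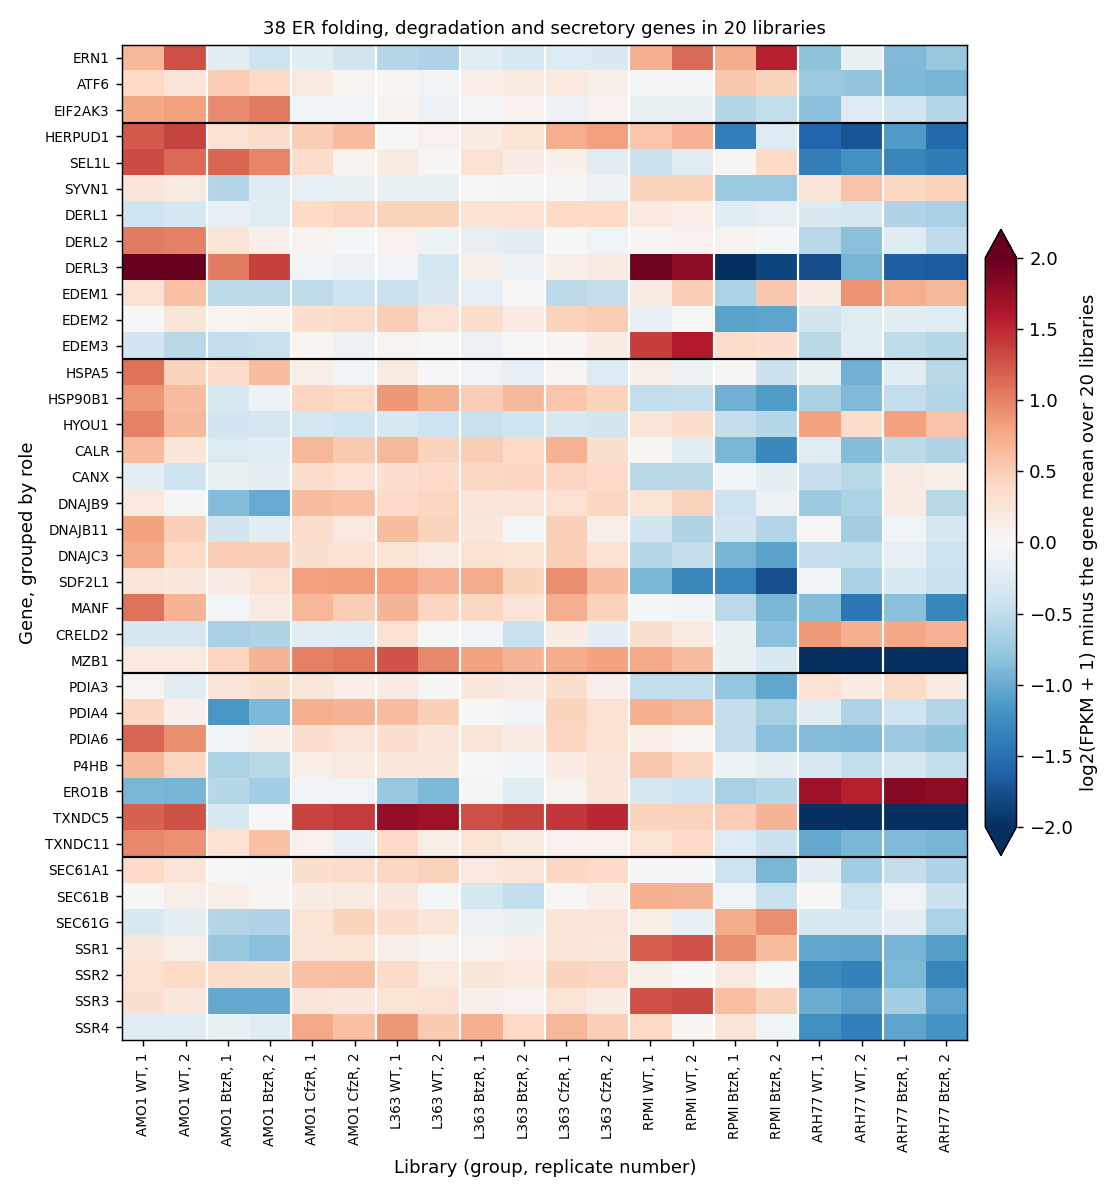
Heat map of log2(FPKM + 1) minus the mean of each gene over the 20 libraries, with genes in rows by role (black lines) and libraries in columns by group (white lines). Colours are capped at 2 on either side, and MZB1 and TXNDC5 fill the lowest colour in all 4 ARH77 libraries.

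Bortezomib-resistant AMO1 cells had lower RNA for much of the folding machinery than AMO1 WT cells. Of the 38 genes, 20 fell and 4 rose, against 25.6% of all tested genes in each direction, and 8 were called lower and 0 higher, against 4.57% and 4.61%. At an unadjusted p under 0.05, 4 were higher. The count of 4 that rose was 1 with only the groups compared or without AMO1 WT replicate 2, and 2 without any other AMO1 library. The median log2 difference of the 38 was -0.43, beside -0.0017 over all tested genes. By role, 5 of 7 oxidative folding enzymes, 6 of 12 chaperones, 5 of 9 ERAD genes, 3 of 7 translocon genes and 1 of 3 sensors fell. The 38 genes together made up 2.11% and 1.82% of summed FPKM in the AMO1 WT libraries and 1.22% and 1.31% in the AMO1 BtzR libraries.

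The oxidative folding enzymes, which form and rearrange disulfide bonds, supplied 4 of the 8 calls. TXNDC5, a disulfide isomerase abundant in plasma cells, was at 1399 and 1492 FPKM in AMO1 WT and 501 and 613 in AMO1 BtzR (log2 difference -1.38 ± 0.10, adjusted p = 7.06e-08). PDIA4 was at 171 and 138 in WT and 56.4 and 67.9 in BtzR (-1.30 ± 0.14, adjusted p = 2.12e-06), so that the groups lay apart by more than the gap between replicates. P4HB, the first protein disulfide isomerase described, went from 581 and 501 to 241 and 252 (-1.13 ± 0.09, adjusted p = 9.76e-08). PDIA6 went from 667 and 569 to 288 and 319 (-1.02 ± 0.11, adjusted p = 2.06e-06). In all 4 genes both BtzR libraries lay below both WT libraries, and PDIA6 stood near the 2-fold line, at -0.90 without AMO1 WT replicate 1. TXNDC11 also fell (-0.50), whereas PDIA3, which acts on glycoproteins with calnexin and calreticulin, and ERO1B rose (0.35 and 0.30).

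Among chaperones, HYOU1 was at 232 and 184 FPKM in AMO1 WT and 89.3 and 92.0 in AMO1 BtzR (-1.18 ± 0.13, adjusted p = 3.15e-06). DNAJB9, a cochaperone of BiP that binds ERN1, was at 14.7 and 12.4 against 6.51 and 5.79 (-1.02 ± 0.17, adjusted p = 2.10e-04), and its difference was -0.90 without AMO1 WT replicate 1. HSP90B1 fell from 1182 and 986 to 518 and 601 (-0.95 ± 0.11, adjusted p = 7.84e-06), just under 2-fold. HSPA5, at 570.1 and 367 in WT and 346 and 411 in BtzR, overlapped between the groups and did not pass (-0.28 ± 0.25, adjusted p = 0.389). MZB1, which helps to assemble immunoglobulin with HSP90B1, went the other way, from 489 and 489 to 573 and 684 (0.36 ± 0.12, adjusted p = 0.0185). The cochaperone DNAJB11 (-0.95), MANF (-0.82) and calreticulin, CALR (-0.69), also fell. MANF and CALR each passed in 13 of 14 alternatives and were at -0.62 and -0.50 without AMO1 WT replicate 1. CANX, DNAJC3, SDF2L1 and CRELD2 did not pass, at 0.12, -0.08, -0.01 and -0.28.

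The sensor ERN1, which splices XBP1 mRNA, was at 14.1 and 22.1 FPKM in AMO1 WT and 7.09 and 6.07 in AMO1 BtzR (-1.30 ± 0.25, adjusted p = 6.47e-04). Its WT replicates differed by 0.62 on the log2 scale, and the difference was -0.99 without the higher of them, AMO1 WT replicate 2. ATF6 was at 26.6 and 24.0 in WT and 28.6 and 26.4 in BtzR, and EIF2AK3 at 23.2 and 23.9 against 26.2 and 28.2; neither passed (0.12 and 0.20). SSR3, a TRAP subunit, was at 124 and 117 in WT and 48.5 and 48.4 in BtzR (-1.30 ± 0.10, adjusted p = 6.44e-08), and SSR1 (-0.96) and the channel subunit SEC61G (-0.36) also fell, while SSR2 and SSR4, of the same complex, were at 0.01 and 0.04 and did not pass. Of the ERAD genes, EDEM1 (-0.98), HERPUD1 (-0.96), DERL3 (-0.92), DERL2 (-0.84) and SYVN1 (-0.64) fell and DERL1 rose (0.17). EDEM1 passed in 13 of 14 alternatives and was at -0.83 without AMO1 WT replicate 2. SEL1L, EDEM2, EDEM3, SEC61A1 and SEC61B did not pass, at -0.14, -0.07, -0.00, -0.35 and 0.03. In the same cells the plasma cell marker SDC1 was lower (3266 and 2883 against 1276 and 1356 FPKM), as were CD38 (12.6 and 15.9 against 6.62 and 6.16) and IRF4 (134 and 177 against 106 and 131). TNFRSF17 and XBP1 overlapped. By contrast, SLAMF7 (91.9 and 88.6 against 130.2 and 157), PRDM1 (22.5 and 30.2 against 36.9 and 38.8) and the B-cell marker CIITA (9.17 and 6.48 against 98.6 and 96.1) were higher. The part of these markers in the differences was not tested.

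**Figure D2:**
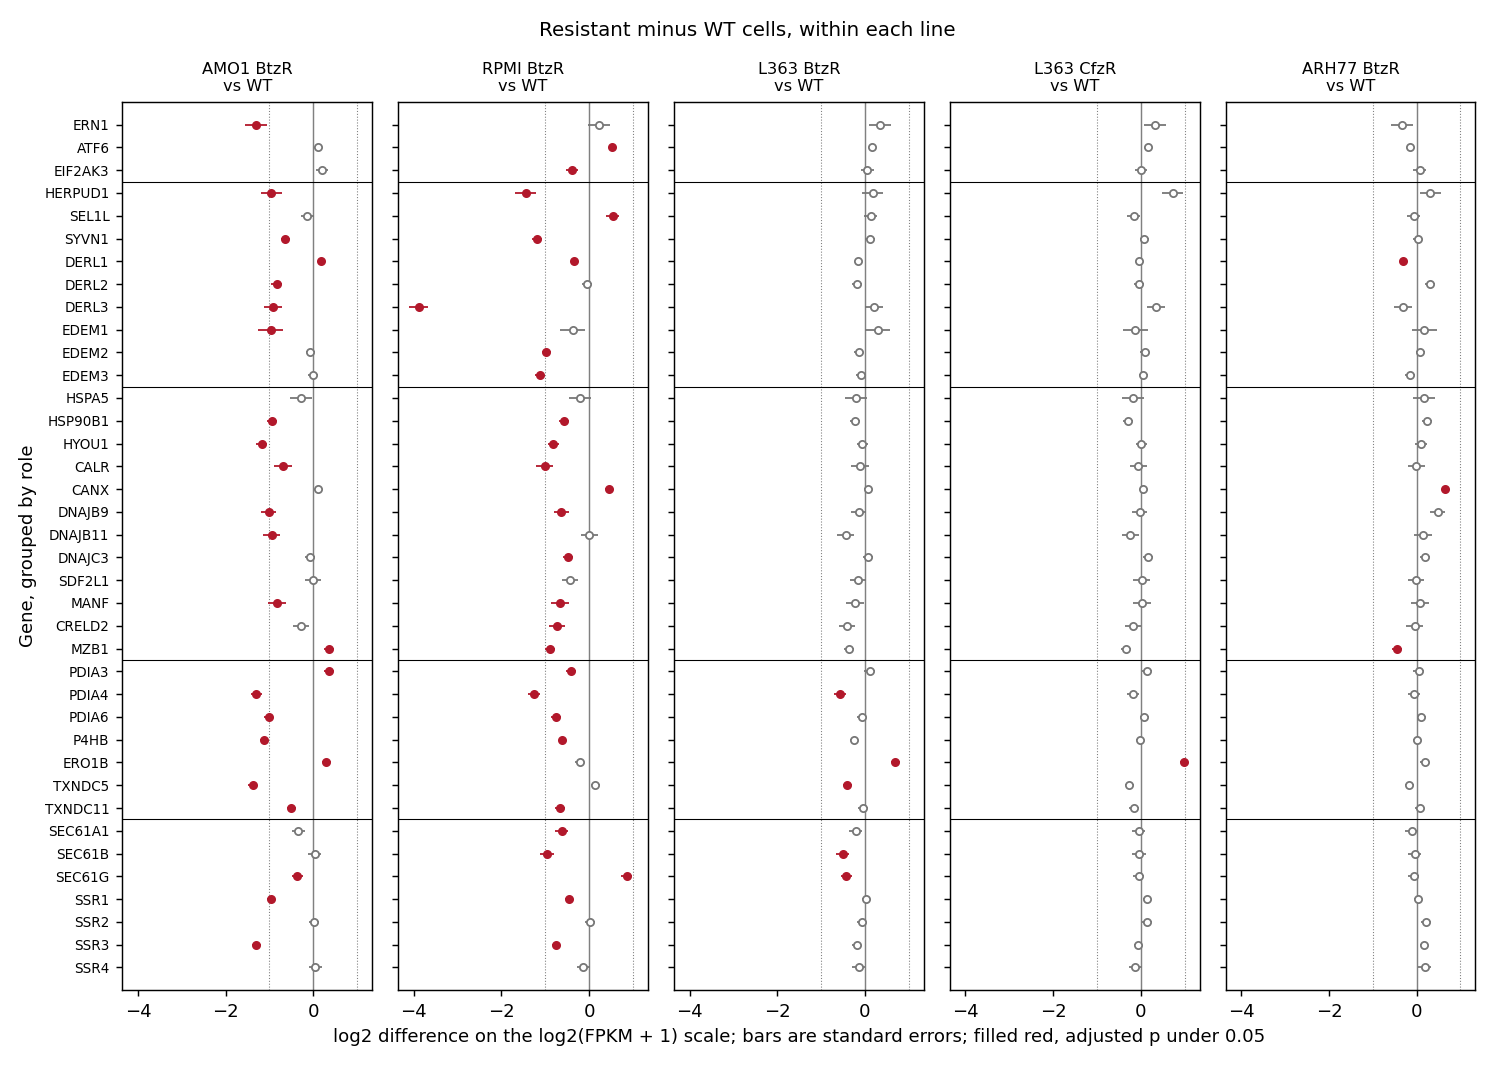
Log2 differences, resistant minus WT, on the log2(FPKM + 1) scale for each of the 38 genes (rows, by role) in 5 within-line comparisons (panels), with standard errors. Filled red points passed at an adjusted p under 0.05: 24 in AMO1 BtzR, 28 in RPMI BtzR, 5 in L363 BtzR, 1 in L363 CfzR and 3 in ARH77 BtzR, and dotted lines mark 2-fold.

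Bortezomib-resistant RPMI cells also had lower RNA for most of the genes than their WT cells, with DERL3 the furthest. Of the 38 genes, 24 fell and 4 rose, against 24.2% and 30.2% of all tested genes, and 6 were called lower and 0 higher, against 7.92% and 5.91%. The 4 that rose also make up the count of higher genes at an unadjusted p under 0.05. The median log2 difference was -0.52, beside 0.052 over all tested genes. By role, 6 of 9 ERAD genes, 8 of 12 chaperones, 5 of 7 oxidative folding enzymes, 4 of 7 translocon genes and 1 of 3 sensors fell. Their share of summed FPKM was 1.55% and 1.51% in RPMI WT and 1.21% and 1.12% in RPMI BtzR libraries.

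ERAD genes supplied 4 of the 6 calls. DERL3, a derlin of the channel through which misfolded proteins leave the ER, was at 89.1 and 80.6 FPKM in RPMI WT and 4.08 and 5.58 in RPMI BtzR, 17.6-fold lower in the ratio of means (log2 difference -3.89 ± 0.21, adjusted p = 6.37e-10). This was the largest difference of any of the 38 genes within a line. SYVN1, the ERAD ubiquitin ligase HRD1, was at 65.2 and 65.8 in WT and 28.2 and 28.1 in BtzR (-1.19 ± 0.11, adjusted p = 2.68e-07). EDEM3, which trims mannose from misfolded glycoproteins, was at 48.7 and 56.1 against 23.7 and 22.9 (-1.13 ± 0.11, adjusted p = 6.55e-07). HERPUD1 was at 135 and 149 in WT and 34.4 and 76.1 in BtzR (-1.45 ± 0.24, adjusted p = 1.29e-04). Its BtzR replicates differed by 1.12 on the log2 scale: the difference was -0.89 without RPMI BtzR replicate 1, and the adjusted p was 0.0598 in a fit of the RPMI WT and BtzR libraries alone. EDEM1 in the same BtzR libraries was at 13.1 and 30.9, and ATF4, the factor whose translation EIF2AK3 favours, at 209 and 626, so that replicate 2 was the higher in each of the 3 genes. EDEM2 and DERL1 fell (-0.98 and -0.35), DERL2 did not pass (-0.05), and SEL1L, the partner that stabilizes SYVN1, rose from 13.4 and 15.4 to 18.6 and 24.5 (0.54 ± 0.15, adjusted p = 0.00629).

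Outside ERAD, PDIA4 was at 209 and 203 FPKM in RPMI WT and 92.1 and 80.0 in RPMI BtzR (-1.25 ± 0.14, adjusted p = 1.84e-06). CALR was at 888 and 746 against 459 and 352 (-1.02 ± 0.20, adjusted p = 4.96e-04). CALR stood close to the 2-fold line, and without RPMI WT replicate 1 or RPMI BtzR replicate 2, or with each library rescaled to 1 sum, its difference was under 1. Smaller decreases were seen for SEC61B, a channel subunit (345 and 337 to 199 and 153, -0.96 ± 0.15, adjusted p = 7.47e-05), MZB1 (717 and 654 to 389 and 346, -0.90 ± 0.12, adjusted p = 1.17e-05) and HYOU1 (139 and 149 to 83.7 and 78.2, -0.82 ± 0.13, adjusted p = 7.38e-05). HSP90B1 fell from 458 and 466 to 328 and 296 (-0.57), P4HB from 539 and 495 to 347 and 330.1 (-0.61), PDIA6 from 327 and 309 to 211 and 168 (-0.76), SSR3 from 241 and 250.01 to 152 and 138 (-0.76) and DNAJB9 from 15.5 and 17.8 to 9.2 and 11.6 (-0.63). Both BtzR libraries lay below both WT libraries in each of these 5 genes. The other chaperones, folding enzymes and TRAP subunits that fell were DNAJC3 (-0.47), MANF (-0.67), CRELD2 (-0.73), PDIA3 (-0.41), TXNDC11 (-0.67) and SSR1 (-0.45), and those that did not pass were DNAJB11 (0.00), SDF2L1 (-0.44), ERO1B (-0.22), SSR2 (0.02) and SSR4 (-0.14).

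The genes that rose in RPMI BtzR were SEL1L, the lectin chaperone CANX, the sensor ATF6 and the channel subunit SEC61G. CANX went from 243 and 242 to 345 and 316 FPKM (0.44 ± 0.08, adjusted p = 2.95e-04) and ATF6 from 19.6 and 19.6 to 29.6 and 27.6 (0.52 ± 0.08, adjusted p = 4.60e-05). SEC61G rose by 0.85 (adjusted p = 5.16e-05) while SEC61A1 and SEC61B, subunits of the same channel, fell (-0.63 and -0.96). EIF2AK3 fell from 11.8 and 11.8 to 8.49 and 9.03 (-0.39 ± 0.14, adjusted p = 0.0332) and did not pass without any 1 of the 4 RPMI libraries. SEL1L did not pass with only the groups compared, or without RPMI WT replicate 1 or RPMI BtzR replicate 2. ERN1 was at 14.5 and 19.7 in WT and 14.8 and 26.7 in BtzR, HSPA5 at 289 and 250.2 against 273 and 199, and TXNDC5 at 840.2 and 851 against 883 and 989, and none of these passed (0.23, -0.20 and 0.14). The plasma cell markers TNFRSF17 (94.0 and 98.1 against 7.86 and 4.93 FPKM) and CD38 (45.6 and 56.7 against 2.43 and 3.02) were also lower in RPMI BtzR. SLAMF7 was lower too, at under 1 FPKM throughout, and SDC1 overlapped. PRDM1 (11.3 and 12.7 against 21.4 and 15.9), IRF4 (60.7 and 66.1 against 84.1 and 116) and XBP1 (246 and 248 against 341 and 327) were higher. The part of these markers in the differences was not tested.

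**Figure D3:**
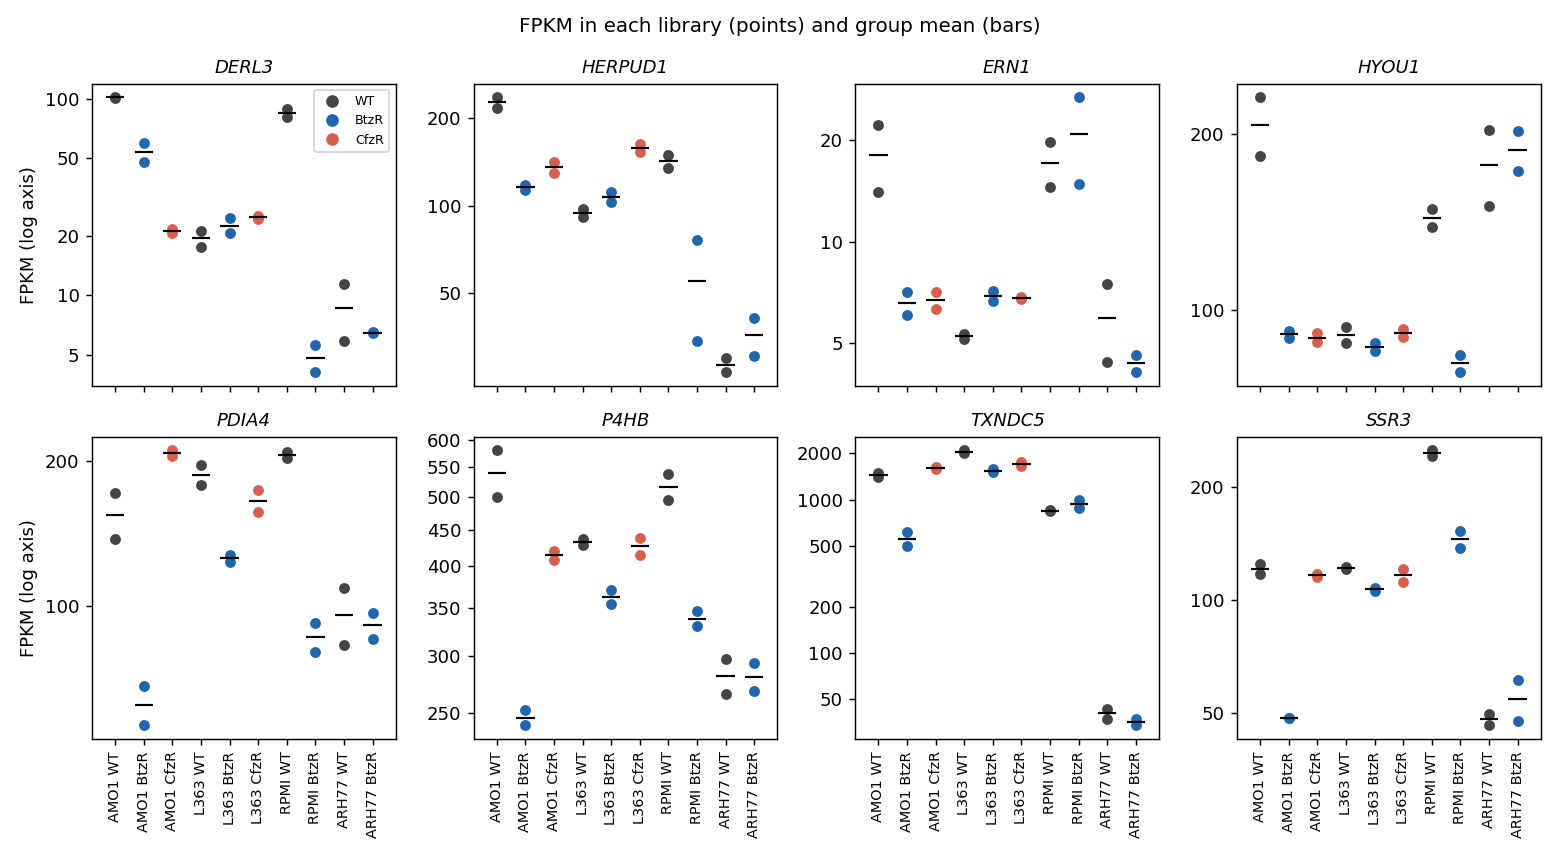
FPKM on a log axis for 8 of the genes in each of the 20 libraries (points) with group means (bars), grey for WT, blue for BtzR and red for CfzR. DERL3 drops from a mean of 84.8 in RPMI WT to 4.83 in RPMI BtzR, while TXNDC5 drops in AMO1 BtzR and not in RPMI BtzR.

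AMO1 and RPMI have no library in common, so that their lists can be set side by side. Of the 38 genes, 14 fell in both lines, or 36.8%, beside 7.83% of all tested genes. These 14 were 70.0% of those that fell in AMO1 BtzR and 58.3% of those that fell in RPMI BtzR, beside 30.6% and 32.4% over all tested genes. They were CALR, HSP90B1, HYOU1, MANF, DNAJB9, PDIA4, PDIA6, P4HB, TXNDC11, HERPUD1, DERL3, SYVN1, SSR1 and SSR3, so that every role except the sensors was represented. Not all were stable: MANF passed in 13 of 14 alternatives in AMO1 BtzR and 11 of 14 in RPMI BtzR. CALR passed in 13 of 14 in AMO1 BtzR. In RPMI BtzR, DNAJB9 passed in 12 of 14 and HERPUD1 and SSR1 in 13 of 14. Another 5 fell in AMO1 BtzR without passing in RPMI BtzR, beside 1410 of 13089 tested genes. In RPMI BtzR 7 fell without passing in AMO1 BtzR, beside 1462, and 0 rose in both lines, beside 1254. MZB1, PDIA3 and DERL1 rose in AMO1 BtzR and fell in RPMI BtzR, and SEC61G did the reverse. Opposite changes were seen for 1593 of the 13089 tested genes, and these 4 of 38 are no more than that share. In AMO1 BtzR these 4 differences were among the smallest that passed, and MZB1 and DERL1 passed in 10 and PDIA3 and SEC61G in 11 of 14 alternatives, with adjusted p up to 0.197, 0.202, 0.196 and 0.150.

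Whether the bortezomib effect differed between the 4 lines was tested for each gene by limma's moderated F test. It differed for 31 of the 38 genes, beside 71.1% of all tested genes. DERL3 (adjusted p = 8.37e-08), SSR3 (1.60e-06), TXNDC5 (2.62e-06) and SYVN1 (8.87e-06) had the lowest p. Averaged over the 4 lines, 24 genes fell and 3 rose, beside 26.8% and 25.5% of all tested genes, with only DERL3 past 2-fold (-1.23 ± 0.10, adjusted p = 2.36e-07), beside 1.17% of all tested genes called lower and 0.527% higher. PDIA4 had the next largest mean difference (-0.80), and the 3 that rose were CANX (0.32), ERO1B (0.24) and ATF6 (0.17). The standard errors and p-values of these means rest on the spread between replicate libraries and not between lines. DERL3 was at -3.89 in RPMI and -0.92 in AMO1 BtzR and did not pass in L363 or ARH77 BtzR. Its mean therefore does not describe each line.

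Resistant L363 cells differed little from L363 WT in these genes. In L363 BtzR, 1 rose and 4 fell, against 5.66% and 5.52% of all tested genes, and 0 were called, against 1.02% and 1.05%. At an unadjusted p under 0.05 limma gave 2 higher and 9 lower. ERO1B was at 1.48 and 1.23 FPKM in WT and 3.10 and 2.52 in BtzR (0.69 ± 0.10, adjusted p = 2.41e-04). PDIA4 was at 196 and 178 in WT and 127 and 124 in BtzR (-0.57 ± 0.14, adjusted p = 0.0123), the same direction as in the other 2 myeloma lines. SEC61B was at 242 and 206 against 164 and 149 (-0.51 ± 0.15, adjusted p = 0.0402), and TXNDC5 at 2096 and 2000.3 against 1518 and 1578 (-0.40 ± 0.10, adjusted p = 0.0195). SEC61G was the remaining gene that fell (-0.42). These decreases were not stable: PDIA4 passed in 11, TXNDC5 in 9, SEC61B in 6 and SEC61G in 4 of 14 alternatives, and none of the 4 passed without L363 WT replicate 1, L363 BtzR replicate 1 or L363 BtzR replicate 2, whereas ERO1B passed in all 14. DERL3, which fell in the other 2 myeloma lines, was at 21.4 and 17.6 in L363 WT, 24.7 and 20.8 in BtzR and 24.6 and 25.4 in CfzR and did not pass. The median difference was -0.13, beside 0 over all tested genes.

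In L363 CfzR cells ERO1B alone passed, rising from 1.48 and 1.23 to 3.37 and 3.95 FPKM (0.98 ± 0.10, adjusted p = 9.22e-06), against 4.88% of all tested genes higher and 3.58% lower. None was called, against 1.11% and 0.825%, and at an unadjusted p under 0.05 limma gave 3 higher and 3 lower. ERO1B is the lowest of the 38 genes in the myeloma lines, and with a pseudocount of 0.1 in place of 1, which weighs low values more, it passed 2-fold. HERPUD1 was at 91.5 and 97.4 in WT and 153 and 163 in CfzR, which did not overlap, with 0.73 ± 0.24, adjusted p = 0.0824, and MZB1 at 1018 and 832 against 712 and 743 (-0.34 ± 0.12, adjusted p = 0.10). Between the 2 inhibitors in the same line, L363 CfzR against L363 BtzR, 0 of the 38 passed in limma, against 3.27% and 2.87% of all tested genes, and 0 were called, against 0.940% and 0.535%; 7 were higher in CfzR and 0 lower at an unadjusted p under 0.05. The largest value was that of HERPUD1 (103 and 112 in BtzR, 153 and 163 in CfzR; 0.55 ± 0.24, adjusted p = 0.280). These 3 L363 comparisons share libraries pairwise.

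ARH77 BtzR cells, of B-lymphoblastoid type, differed from ARH77 WT in 3 genes, 1 higher and 2 lower, against 5.98% and 7.60% of all tested genes, and 0 were called, against 0.955% and 0.649%. At an unadjusted p under 0.05 limma gave 3 higher and 2 lower. CANX was at 258 and 242 FPKM in WT and 399 and 387 in BtzR (0.65 ± 0.08, adjusted p = 6.48e-05). MZB1 was at 86.2 and 94.7 against 71.3 and 60.5 (-0.45 ± 0.12, adjusted p = 0.0166), and DERL1 fell by a smaller amount (-0.31). None of the 3 passed in a fit of the ARH77 libraries alone, and MZB1 did not pass without ARH77 WT replicate 2 or ARH77 BtzR replicate 2. DNAJB9, at 7.27 and 7.76 in WT and 14.2 and 8.25 in BtzR with 1 BtzR library well above the other, did not pass (0.48 ± 0.17, adjusted p = 0.0861). The share of the 38 genes in summed FPKM was 0.882% and 0.739% in WT and 0.878% and 0.798% in BtzR libraries, so that these groups overlapped.

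**Figure D4:**
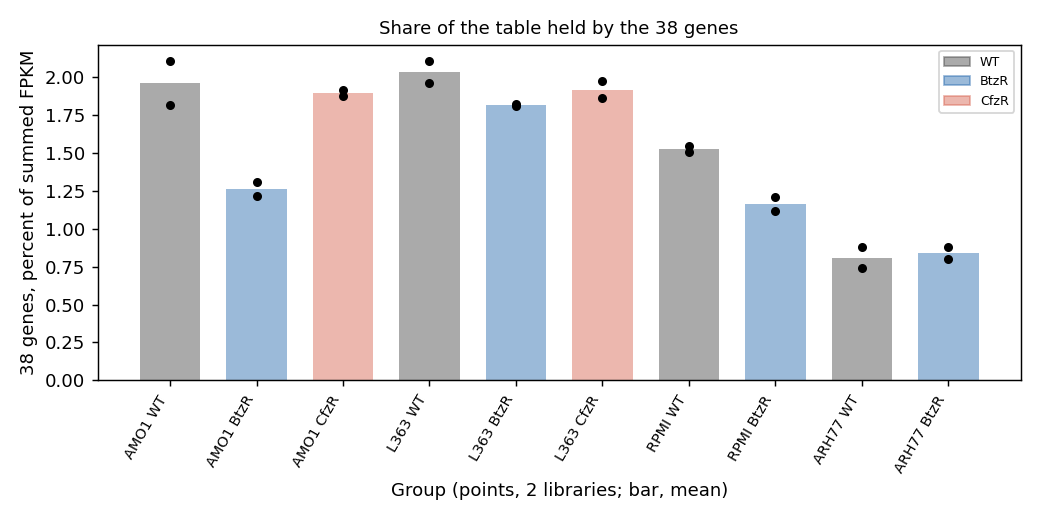
Share of summed FPKM held by the 38 genes in each library (points) with the group mean (bars), in percent, grey for WT, blue for BtzR and red for CfzR. The AMO1 BtzR mean of 1.26% lies below the AMO1 WT mean of 1.97%, and both ARH77 groups lie below 1%.

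The libraries labelled AMO1 CfzR lay near L363 in these genes as they did in the rest of the table. For 31 of the 38 genes their mean was nearer to L363 WT than to AMO1 WT, with a median distance of 0.080 against 0.478 on the log2 scale. Against AMO1 WT, 10 genes were higher and 15 lower, beside 26.8% and 30.9% of all tested genes, and 5 were called lower and 0 higher, beside 9.21% and 7.88%. At an unadjusted p under 0.05 limma gave 13 higher. Against L363 WT, ERO1B alone passed, beside 3.52% of all tested genes higher and 3.40% lower, with 0 called, beside 0.856% and 0.802%, and 3 higher and 3 lower at an unadjusted p under 0.05 in limma.

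The 5 called against AMO1 WT were DERL3, ERN1, HYOU1, DERL2 and SEL1L. DERL3 was at 21.9 and 20.8 FPKM in these libraries, 102 and 102 in AMO1 WT (-2.21 ± 0.21, adjusted p = 3.51e-07) and 21.4 and 17.6 in L363 WT. ERN1 was at 7.09 and 6.34 (-1.27 ± 0.25, adjusted p = 5.80e-04 against AMO1 WT), HYOU1 at 91.0 and 88.0 (-1.2 ± 0.13, adjusted p = 1.35e-06), and the derlin DERL2 at 7.28 and 6.65, against 15.2 and 14.9 in AMO1 WT and 7.42 and 6.39 in L363 WT (-1.01 ± 0.12, adjusted p = 2.77e-06 against AMO1 WT). SEL1L was at 23.9 and 19.3, against 46.9 and 41.3 in AMO1 WT and 20.8 and 18.7 in L363 WT (-1.0 ± 0.15, adjusted p = 3.59e-05 against AMO1 WT), at the 2-fold line. DERL2 and SEL1L were under 2-fold with quantile normalization or without AMO1 CfzR replicate 2, SEL1L also without AMO1 WT replicate 1, and ERN1 without AMO1 WT replicate 2. ERO1B was at 2.98 and 2.97, above both AMO1 WT (1.21 and 1.2) and L363 WT (1.48 and 1.23; 0.76 ± 0.10, adjusted p = 1.26e-04 against L363 WT). The next largest differences from L363 WT were those of HERPUD1 (129.6 and 142; 0.52 ± 0.24, adjusted p = 0.298) and HSP90B1 (869.98 and 843 against 1179 and 1055; -0.38 ± 0.11, adjusted p = 0.0612), which did not pass. In the comparison with AMO1 WT a difference of line and an effect of carfilzomib cannot be told apart.

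The WT lines differed in every one of the 38 genes by limma's F test over the 4 lines, as did 92.6% of all tested genes, and 28 differed by at least 2-fold between their highest and lowest line, beside 52.2%. Over all 10 groups the range between the highest and lowest group mean had a median of 1.70 on the log2 scale, from 0.98 to 5.80, beside 1.36 over all tested genes. As a mean of the 3 myeloma lines against ARH77, 31 genes were higher and 5 lower, beside 34.2% and 38.9% of all tested genes. Of these, 14 were called higher and 1 lower, beside 10.3% and 11.9%, and the median difference was 0.85, beside -0.037. Standard errors and p-values of this comparison likewise rest on the replicate libraries and not on the spread between lines.

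TXNDC5 was furthest from ARH77, at 1399 and 1492 FPKM in AMO1 WT, 2096 and 2000.3 in L363 WT, 840.2 and 851 in RPMI WT and 43.6 and 37.4 in ARH77 WT (log2 difference 5.04 ± 0.08, adjusted p = 6.61e-16). MZB1 was at 489 and 489, 1018 and 832, 717 and 654, and 86.2 and 94.7 in the same order (2.89 ± 0.09, adjusted p = 1.01e-12). Every myeloma library lay above every ARH77 library in both genes. DERL3 was at 102 and 102, 21.4 and 17.6, 89.1 and 80.6, and 5.88 and 11.4 (2.61 ± 0.17, adjusted p = 2.82e-09), and HERPUD1 at 217 and 235, 91.5 and 97.4, 135 and 149, and 29.9 and 26.9 (2.31 ± 0.20, adjusted p = 5.71e-08). SSR3 was at 124 and 117, 121 and 122, 241 and 250.01, and 49.8 and 46.5 (1.65 ± 0.08, adjusted p = 6.96e-11). The other TRAP subunits SSR1, SSR2 and SSR4 were also called higher in myeloma cells (1.54, 1.55 and 1.53), and all 7 translocon genes were higher in the mean of the myeloma lines. SEC61B (0.48) passed in 17 of 18 alternatives. Its levels in AMO1 WT (208 and 226) and L363 WT (242 and 206) overlapped ARH77 WT (211 and 157), and RPMI WT lay above (345 and 337). ERO1B was the single call in the other direction, at 1.21 and 1.2, 1.48 and 1.23, 2.26 and 2.12, and 12.5 and 11.3 (-2.34 ± 0.08, adjusted p = 2.04e-12).

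**Figure D5:**
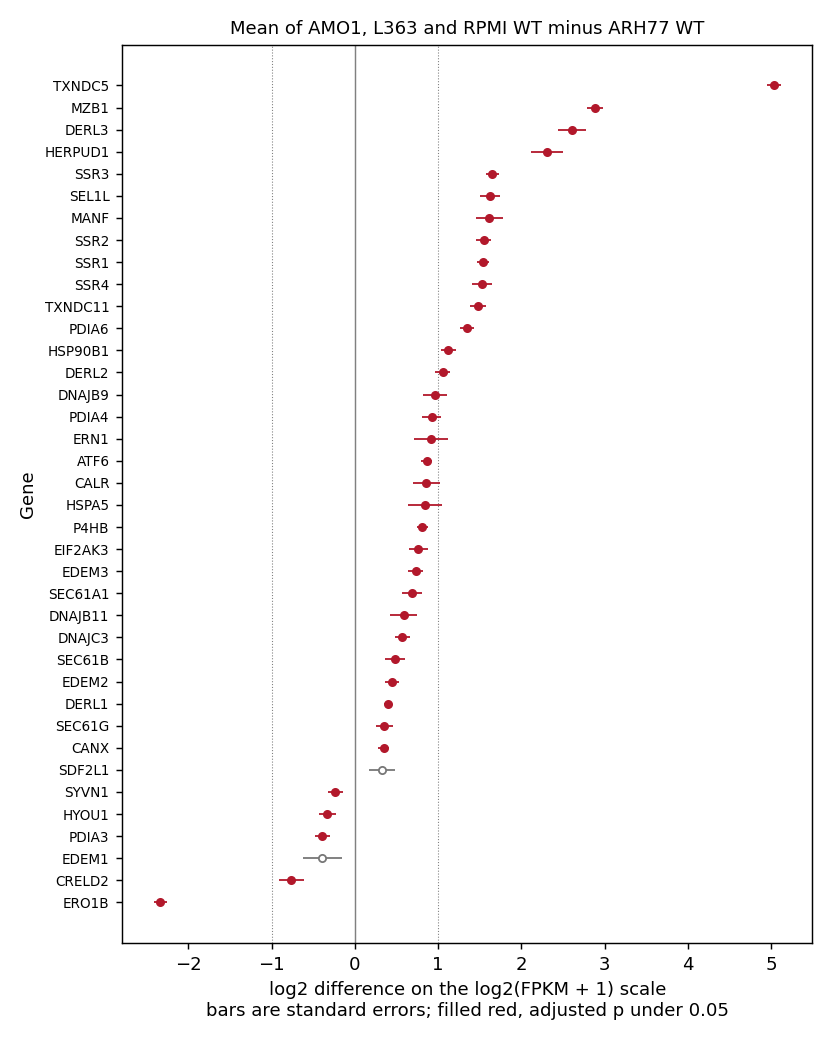
Log2 difference between the mean of AMO1, L363 and RPMI WT and ARH77 WT on the log2(FPKM + 1) scale for each of the 38 genes, in order, with standard errors. Filled red points passed at an adjusted p under 0.05, dotted lines mark 2-fold, and TXNDC5 (5.04) and ERO1B (-2.34) lie at the ends.

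The remaining calls in this comparison were SEL1L (1.62), MANF (1.62), TXNDC11 (1.48), PDIA6 (1.35), HSP90B1 (1.12) and DERL2 (1.05). HSP90B1 and DERL2 were under 2-fold without ARH77 WT replicate 2 (0.89 and 0.91). HSP90B1 was at 1182 and 986 FPKM in AMO1 WT, 1179 and 1055 in L363 WT, 458 and 466 in RPMI WT and 411 and 347 in ARH77 WT, so that RPMI stood nearer to ARH77 than to the other myeloma lines. HSPA5 was at 570.1 and 367, 305 and 266, 289 and 250.2, and 242 and 138 in the same order (0.84 ± 0.20, adjusted p = 0.00184), and without ARH77 WT replicate 2 it did not pass. All 3 sensors were higher in the mean of the myeloma lines. For ERN1 this came from AMO1 WT (14.1 and 22.1 FPKM) and RPMI WT (14.5 and 19.7). Its mean in L363 WT (5.245) lay below that in ARH77 WT (5.96). ATF6 was at 20.4 and 19.1 in L363 WT and 11.6 and 11.1 in ARH77 WT, EIF2AK3 at 13.9 and 12.1 against 6.90 and 10.8, and ERN1 at 5.34 and 5.15 against 4.41 and 7.51, so that the ERN1 levels of these 2 lines overlapped. CRELD2 (-0.76), PDIA3 (-0.39), HYOU1 (-0.33) and SYVN1 (-0.24) were lower in the mean of the myeloma lines, and EDEM1 and SDF2L1 did not pass. HYOU1 in AMO1 WT (232 and 184) overlapped ARH77 WT (203 and 151), and SYVN1 in RPMI WT (65.2 and 65.8) lay between the ARH77 WT libraries (56.8 and 71.5). HYOU1 did not pass with only the groups compared or without ARH77 WT replicate 1, and SYVN1 with only the groups compared or without ARH77 WT replicate 2 (adjusted p up to 0.354 and 0.514).

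The sensors and HSPA5 did not pass in L363 BtzR, L363 CfzR or ARH77 BtzR. ERN1 was at 7.15 and 6.67 FPKM in the L363 BtzR libraries and 6.85 and 6.75 in those of L363 CfzR, ATF6 at 22.0 and 22.7 and at 22.9 and 21.8, and EIF2AK3 at 13.0 and 14.1 and at 12.1 and 14.1. HSPA5 was at 255 and 239.6 and at 280.2 and 223 in the same groups, and at 233 and 182 in ARH77 BtzR. The libraries with the AMO1 CfzR label had 292 and 259 for HSPA5, 22.8 and 20.8 for ATF6 and 12.6 and 12.6 for EIF2AK3. HSPA5 and both sensors were lower than in AMO1 WT (-0.73, -0.21 and -0.86). HSPA5 passed in 10 and ATF6 in 9 of 13 alternatives, and EIF2AK3 in all 13. In ARH77 BtzR, ERN1 was at 4.12 and 4.62, ATF6 at 10.3 and 10.0 and EIF2AK3 at 9.78 and 8.55.

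Of 64 further genes of the same pathways, 10 rose and 34 fell in AMO1 BtzR, 6 rose and 32 fell in RPMI BtzR, 1 rose and 5 fell in L363 BtzR, 2 rose and 2 fell in L363 CfzR, and 4 rose and 3 fell in ARH77 BtzR. Of all tested genes, the shares that rose and fell were 25.6% and 25.6%, 30.2% and 24.2%, 5.66% and 5.52%, 4.88% and 3.58%, and 5.98% and 7.60% in the same order. The largest differences named next are those among the genes that passed. In AMO1 BtzR the largest differences were those of FKBP11, a prolyl isomerase of the secretory pathway (-2.37), STT3A, a catalytic subunit of oligosaccharyltransferase (-1.59), the membrane-bound factor CREB3L2 (-1.56) and SERP1, a small protein of the translocon (-1.04). In RPMI BtzR they were those of KDELR3, a receptor that retrieves ER residents (-2.04), FKBP11 (-1.58), FKBP2 (-1.35) and WFS1 (-1.30). FKBP11 was at 231 and 233 FPKM in AMO1 WT and 38.4 and 50.8 in AMO1 BtzR, and at 173 and 133 against 58.1 and 42.8 in the RPMI groups. In L363 BtzR the largest that passed were KDELR3 (-0.63), PDIA5 (-0.52), the sulfhydryl oxidase QSOX1 (0.48) and RPN1 (-0.39). In L363 CfzR those that passed were QSOX1 (0.65), PDIA5 (-0.41), the ubiquitin-conjugating enzyme UBE2J1 (-0.33) and KDELR1 (0.30). KDELR3 was called between the 2 resistant L363 groups (1.04, CfzR minus BtzR), where ERP29 (0.42) and KDELR1 (0.29) were the other 2 that passed. In ARH77 BtzR, ERO1A (0.64) and TRAM1 (0.39) rose while NPLOC4 (-0.48) and VCP (-0.38), which together pull ERAD substrates from the membrane, fell. Averaged over the 4 lines, 4 of the 64 rose and 35 fell, beside 25.5% and 26.8% of all tested genes, led by FKBP11 (-1.06), KDELR3 (-0.62), STT3A (-0.60) and the coat protein SEC24D (-0.54).

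XBP1, the factor that ERN1 activates by splicing, did not follow these decreases at the level of total RNA, and FPKM per gene do not tell its spliced form from the unspliced. It was at 63.1 and 78.3 FPKM in AMO1 WT and 72.8 and 73.1 in AMO1 BtzR (0.05 ± 0.11, adjusted p = 0.746), and at 246 and 248 in RPMI WT and 341 and 327 in RPMI BtzR (0.43 ± 0.11, adjusted p = 0.00394). AMO1 WT was thus close to ARH77 WT (80.9 and 74.3) and far below L363 WT (693 and 603). Of the WT lines, AMO1 had the highest HERPUD1 and DERL3 levels, and L363 the highest MZB1 and TXNDC5 levels. Any link of XBP1 RNA to these levels was not tested. Libraries with the AMO1 CfzR label had 682 and 624 FPKM of XBP1 (3.20 ± 0.11, adjusted p = 3.26e-12 against AMO1 WT). ATF4 and DDIT3, of the EIF2AK3 branch, did not pass in any of the 5 within-line comparisons. Replicates of these genes lay far apart in RPMI BtzR, at 209 and 626 FPKM for ATF4 and 3.73 and 19.1 for DDIT3. DDIT3 was also at 9.17 and 24.2 in ARH77 WT, so that a difference in these lines could be missed. Against AMO1 WT the libraries labelled AMO1 CfzR were lower in PPP1R15A (-2.85) and DDIT3 (-2.06) and higher in TRAM1 (1.37), with 25 of the 64 higher and 17 lower, beside 26.8% and 30.9% of all tested genes, and against L363 WT QSOX1 (0.69) and UBE2J1 (-0.36) passed. Between the WT lines, 48 of the 64 were higher in myeloma cells and 7 lower, beside 34.2% and 38.9% of all tested genes, with KDELR3 (2.83), FKBP2 (2.08), the signal peptidase subunit SPCS1 (2.04) and PPP1R15A (-2.0) the furthest. PPP1R15A was not lower in AMO1 WT (37.5 and 44.9 FPKM) than in ARH77 WT (39.5 and 43.8). Its difference came from L363 WT (5.09 and 5.77) and RPMI WT (3.44 and 3.46).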

How the data were processed

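RNA-seq values from 20 libraries were used. RNA extraction, library construction and BGISEQ-500 sequencing were done by BGI. The authors deposited FPKM values for 18305 genes, and the submitters' processing notes name HISAT2 2.0.4, Bowtie2 2.2.5 and RSEM 1.2.12. The genome build and strand handling are not given in the sources used here, so reads of overlapping genes cannot be told apart (CANX with CBY3, EDEM2 with MMP24-AS1-EDEM2, DERL3 with SMARCB1, TXNDC5 with BMP6 and others), and promoter coordinates are those of RefSeq on GRCh38.p14. No counts or depths accompany the FPKM, so no counting interval was computed, and precision rests on 2 replicates per group. The study's methods call these biological replicates.

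FPKM were transformed as log2(FPKM + 1) and fitted with limma 3.58.1 in R 4.3.3, with a mean for each of 10 groups, a mean-variance trend and 10 residual degrees of freedom. A gene was tested where at least 1 group averaged 1 FPKM or more, 13089 in all, over 12 comparisons. Exact permutation of 2 against 2 libraries cannot go below p = 0.333, so none was made. A test on simulated data for AMO1 BtzR against WT recovered 100 of 100 genes changed by 1.5 on the log2 scale. It also recovered 100 of 100 changed by 3, with 1 unchanged gene called and 13 passing among 13012 tested. The changed genes were at 5 FPKM or more in AMO1 WT, and the noise was independent between libraries. Smaller changes, as most of those reported here are, were not simulated.

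The 38 genes and the lists of other pathway genes and markers were chosen with earlier results of these data in view. Values in each library are given for every gene called within a line or in the libraries labelled AMO1 CfzR, the 3 largest differences per comparison, the 6 largest against ARH77, the sensors, HSPA5, HSP90B1, DERL3 and MZB1. Other pathway genes named are the 4 largest that passed per comparison with XBP1, ATF4 and DDIT3. One marker and the sum of its list are not reported here. FKBP11 values per library, SDC1, SLAMF7, CIITA, TNFRSF17, CD38, IRF4 and PRDM1 were added after seeing values. Alternatives were pseudocounts of 0.1 and 0.01, no filter or 5 FPKM, rescaling to 1 sum as for TPM, quantile normalization, no trend, the replicate number as a block, only the groups compared, no libraries labelled AMO1 CfzR, and each library left out. Python 3.11.15 and matplotlib 3.10.9 drew the figures.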

Additional observations from a re-analysis of the deposited data

Results flagged for a closer look

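The bortezomib-resistance effect differed between AMO1, L363, RPMI and ARH77 for 31 of the 38 genes in limma's F test for the interaction of line and resistance, beside 71.1% of all tested genes, and each adjusted p follows in parentheses. Among sensors these were ATF6 (7.50e-04) and ERN1 (0.00344). Of the ERAD genes they were DERL3 (8.37e-08), SYVN1 (8.87e-06), EDEM3 (5.24e-05), EDEM2 (5.31e-05), DERL2 (1.89e-04), DERL1 (3.46e-04), HERPUD1 (6.62e-04), SEL1L (0.0354) and EDEM1 (0.0410). The chaperones were HYOU1 (5.31e-05), MZB1 (9.08e-05), HSP90B1 (1.04e-04), DNAJB9 (5.03e-04), CANX (0.00102), DNAJC3 (0.00879), DNAJB11 (0.0111), CALR (0.0130) and MANF (0.0387). For oxidative folding they were TXNDC5 (2.62e-06), P4HB (9.90e-06), PDIA6 (2.90e-05), PDIA4 (1.17e-04), ERO1B (4.68e-04), TXNDC11 (0.00190) and PDIA3 (0.00573). The translocon genes were SSR3 (1.60e-06), SSR1 (2.08e-05), SEC61G (6.96e-05) and SEC61B (0.00244). DERL3 fell by 3.89 in RPMI, TXNDC5 by 1.38 in AMO1 and SYVN1 by 1.19 in RPMI, on the log2 scale. Groups of 2 libraries are too small to look for a sample far from the others.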

How the results depend on the processing

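No difference of the 38 genes that passed between 2 groups, in the mean over 4 lines or between myeloma and ARH77 WT turned in direction under any alternative run, while some medians near 0 did (below; in ARH77 BtzR 0.055 became -0.030 without ARH77 BtzR replicate 1). The counts of genes that passed in AMO1 BtzR, RPMI BtzR and AMO1 CfzR against their WT cells, over the 4 lines and between WT lines stayed within 1.5 times, while small counts moved. The 4 that rose in AMO1 BtzR became 1 with only the groups compared, 3 with rescaling to 1 sum, 1 without AMO1 WT replicate 2 and 2 without any other AMO1 library. In L363 BtzR against WT, 5 became 3 with no filter, with rescaling to 1 sum or without the libraries labelled AMO1 CfzR, and 1 to 3 with a library left out (3 without L363 WT replicate 2 and 1 without any other), and 0 called became 1 with a pseudocount of 0.01; the median of -0.13 became -0.067 with rescaling, -0.070 with quantile normalization and -0.17 to -0.040 with a library left out. In L363 CfzR, 1 that passed became 2 with only the groups compared and 1 to 2 with a library left out (2 without L363 WT replicate 2), 0 called became 1 with pseudocounts of 0.1 and 0.01 and 0 to 1 with a library left out (1 without L363 WT replicate 1 or L363 CfzR replicate 1), and the median ranged from -0.047 to 0.057. In RPMI BtzR the median ranged from -0.62 to -0.41. In ARH77 BtzR, 3 became 0 with only the groups compared and 3 to 6 with a library left out (6 without ARH77 WT replicate 1 and 5 without ARH77 BtzR replicate 2). In AMO1 CfzR against AMO1 WT, 5 called became 3 with quantile normalization and 3 to 6 with a library left out (3 without AMO1 CfzR replicate 2), and the median became -0.072 with rescaling, -0.088 with quantile normalization and -0.072 to 0.023 with a library left out. Against L363 WT, 1 that passed became 2 with rescaling, quantile normalization, the replicate block or only the groups compared, 0 called became 1 with pseudocounts of 0.1 and 0.01, and the median ranged from -0.038 to 0.085. The cause of these changes was not tested.

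With the replicate number as a block, 25 genes passed in AMO1 BtzR, 29 in RPMI BtzR, 6 in L363 BtzR, 1 in L363 CfzR, 4 in ARH77 BtzR and 29 in AMO1 CfzR against AMO1 WT, and L363 CfzR against L363 BtzR gave 1 in place of 0; no source ties the numbers, and deviations of same-numbered libraries correlated over genes at r = -0.0055 in AMO1 BtzR and 0.12 to 0.24 in the other comparisons of 2 groups.

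Over single genes, 102 values under an alternative no longer passed and 2440 stayed on the same side of the threshold. Calls lost at the 2-fold line within a line were ERN1, DNAJB9 and PDIA6 in AMO1 BtzR and HERPUD1 and CALR in RPMI BtzR. Read depth is unknown, so that differences of ERO1B, at a few FPKM in the myeloma lines, rest on the replicates alone.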

Other observations

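Replicate 1 was higher than replicate 2 in at least 9 of the 10 groups for 10 of the 38 genes, or 26.3%, beside 449 of 13089 tested genes, or 3.43%. The 10 were ATF6, DERL2, HSPA5, CALR, DNAJB11, DNAJC3, MANF, PDIA4, PDIA6 and SSR4. HERPUD1 and EDEM1 were higher in replicate 2 in 8 of 10 groups. No source says what the replicate numbers mark, and no cause was tested.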
